A study of Mus musculus with 4 samples.

Results

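In mouse 3D engineered muscle given a 30 min bout of electrical stimulation, AP-1 factors and the Egr, Ier and Srf target genes, lists of the immediate early kind, had a median EPS difference of 0.50 and 0.57 (log2) at 0 min and of 0.04 and 0.17 at 5 h. Endoplasmic reticulum chaperones had the reverse order, with medians of 0.10 at 0 min and 0.50 at 5 h. Single cytokine genes such as Il11 and Lif were also higher on the stimulated array at 5 h, although the interleukin-6 family list had a median of 0.25 at 0 min and 0.09 at 5 h. The comparison described here is the difference between those differences, (EPS minus no EPS at 5 h) minus (EPS minus no EPS at 0 min), and is called the late-minus-early difference. It used all 4 arrays of the series, and its members are the 18115 genes of 31896 on the array design whose probes were well above background on all 4. EPS is read as electrical pulse stimulation, which the labels write as electrical plus stimulation.

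The 4 groups were engineered muscle taken at 0 min or 5 h, each time either unstimulated (the control) or stimulated (EPS), and each was 1 array of 1 total RNA sample. Titles name engineered muscle and the tissue field names skeletal muscle, but the labelling protocol names mouse leukocytes as the RNA source. The labels used here give no strain, genotype, age, sex or cell source for the engineered muscle, and do not say whether constructs were pooled. A group of 1 array has no replicate spread, so no test between groups was possible, and every difference describes these 4 arrays.

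Contraction reaches the nucleus of a muscle fibre through calcium, kinase cascades and mechanical load. Immediate early genes, among them those for AP-1, Egr and NR4A transcription factors, are copied within minutes from factors already present in the cell, and most of their messages are short-lived. Genes for secreted factors and for protein folding in the endoplasmic reticulum are commonly switched on later, some of them by the products of the early genes and some by stress sensors in the endoplasmic reticulum membrane.

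A level is the log2 processed spot intensity minus the log2 of the array's 75th percentile, so 0 marks the 75th percentile and a difference of 1 is 2-fold. That percentile lay between 1093 and 1492 intensity units over the 4 arrays, and no spot was saturated. All 9 markers of skeletal muscle fibres, among them the myosin gene Myh3 and the actin gene Acta1, were well above background on all 4 arrays. Of 12 leukocyte markers 7 were measured, among them Cd68 and Ly6g, with a median level of -2.17. Not measured were, among others, Ptprc, Lyz2 and Tyrobp, which no array had well above background. The RNA source was not tested with these markers. A further 2843 genes were well above background on at least 1 array but had no single probe measured on all 4, and 10938 were well above background on none.

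The late-minus-early difference was centred near 0, with a median of -0.05 over the 18115 genes and a range of -0.53 to 0.47 from the 5th to the 95th percentile. It reached 2-fold upward in 181 genes (0.999% of the genes measured) and 2-fold downward in 180 (0.994%). At 0 min alone, 84 genes were 2-fold higher with EPS (0.464%) and 121 lower (0.668%), and at 5 h 97 were higher (0.535%) and 85 lower (0.469%). A gene was placed in the early class when the EPS difference was at least 2-fold at 0 min and under 0.5 on the log2 scale at 5 h, in the late class when the reverse held, and the late-minus-early difference had to reach 2-fold in both. The early class held 48 genes higher with EPS (0.265%) and 49 lower (0.270%). The late class held 46 higher (0.254%) and 42 lower (0.232%). Genes with at least 2-fold in the same direction at both times numbered 9 higher (0.0497%) and 12 lower (0.0662%). Opposite directions at the 2 times, at 2-fold each, were seen in 2 genes that were higher then lower (0.0110%) and 1 that was lower then higher (0.00552%). With 1.5-fold in place of 2-fold, the early class held 175 higher (0.966%) and 216 lower (1.19%) genes, the late class 165 (0.911%) and 223 (1.23%), and the opposite classes 22 (0.121%) and 15 (0.0828%). Upward and downward 2-fold differences were thus about equal in number with these values, but after normexp background correction there were 34 upward and 75 downward, and 18 early higher and 6 early lower genes.

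**Figure D1:**
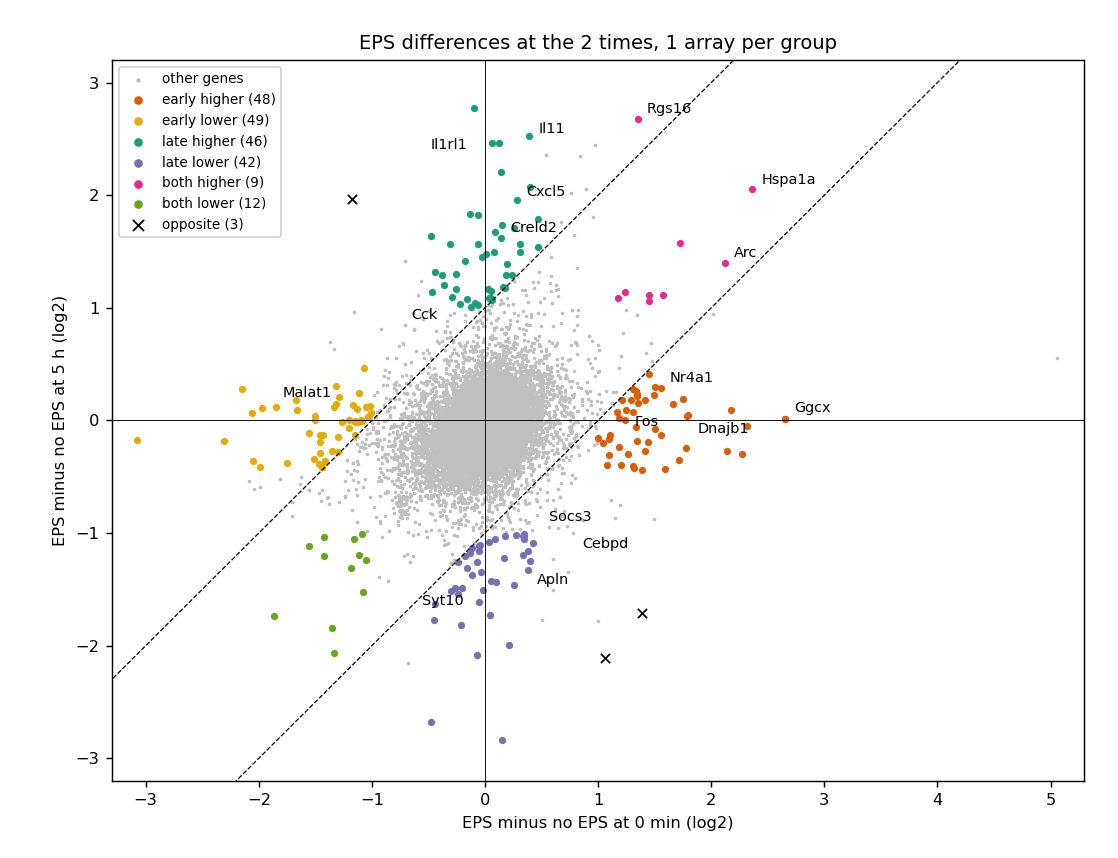
EPS minus no EPS at 0 min (horizontal axis, log2) against EPS minus no EPS at 5 h (vertical axis, log2) for each of the 18115 measured genes, 1 array per group. Colours mark the classes, dashed lines mark a late-minus-early difference of 2-fold, and most class members lie along one of the axes because the class rule asks for a small difference at the other time; Dnajb1 and Nr4a1 lie to the right, Il1rl1 and Il11 at the top, Apln at the bottom, and Arc, Hspa1a and Rgs16 at the upper right.

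Early genes described first are those high with EPS at 0 min. They include a heat shock co-chaperone, an orphan nuclear receptor and 1 AP-1 factor, and the named early genes with larger differences, Ggcx, Ppp5c and Nelfe, are described after them. Dnajb1, the Hsp40 co-chaperone that hands clients to Hsp70, stood at 4.21 in the 0 min control, 4.28 in the 5 h control, 6.01 on the 0 min EPS array and 4.33 on the 5 h EPS array. The EPS array at 0 min was alone high and the other 3 lay close together. Its EPS difference was 1.80 at 0 min and 0.05 at 5 h, which gave a late-minus-early difference of -1.75. Nr4a1, an orphan nuclear receptor, had levels of 3.65 and 4.26 without EPS at 0 min and 5 h and of 5.21 and 4.55 with EPS. Both EPS arrays exceeded their control, by 1.55 at 0 min and 0.29 at 5 h.

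Fos, which pairs with Jun proteins in the AP-1 factor, was at 0.16 without EPS and 1.40 with EPS at 0 min, and at -1.93 and -1.84 at 5 h. Both 5 h arrays were thus low, with or without EPS, and the late-minus-early difference was -1.15. Zfp36, which binds and destabilises short-lived messages, had an EPS difference of 1.08 at 0 min and -0.39 at 5 h on a dim probe. Ier5l differed by 1.31 at 0 min and 0.07 at 5 h. Dusp1, a phosphatase that switches off MAP kinases, was at 0.31, -0.07, 1.47 and 0.00 in the order 0 min control, 5 h control, 0 min EPS and 5 h EPS. It stood apart on the EPS array at 0 min, as did Dnajb1. Ccn1, a secreted matrix-associated protein, was at 3.40 and 4.74 without and with EPS at 0 min and at 1.62 and 1.86 at 5 h, so its level without EPS also differed by time.

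In the AP-1 list and the Egr, Ier and Srf target list most members had a late-minus-early difference below 0, modest in size. Among 10 measured AP-1 factors of 12 listed, 8 had a late-minus-early difference below 0 and 2 above, where 41.9% of all measured genes were above. Of the 10, 4 were at least 1.5-fold downward and none upward, where 4.01% of all measured genes were 1.5-fold downward and 3.37% upward. The list median was 0.50 at 0 min and 0.04 at 5 h. Junb (-1.10) and Fos were 2-fold downward, Fosl2 was just short of it at -0.99, and Atf3, a stress-response member, was higher with EPS at both times (0.61 and 0.84). Among 13 measured Egr, Ier and Srf target genes of 15, all 13 were higher with EPS at 0 min and 8 at 5 h, where 55.0% and 43.3% of all measured genes were, with medians of 0.57 and 0.17. In that list Egr2, which had levels of 2.32 and 3.33 at 0 min and -0.23 and 0.21 at 5 h, and Egr1 (4.58 and 4.90, then 1.70 and 1.43) were much lower on both 5 h arrays. Btg2 (-0.97), Nab2 (-0.77) and Csrnp1 (-0.76) were further early members, whereas Ier3 (0.78 and 0.80), Ier5 (0.56 and 0.58) and Myc (0.57 and 0.45) were higher with EPS to a like extent at both times.

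The other regulator lists did not share this order. Among 11 measured NR4A, Arc and CREB target genes 6 were above 0, where 41.9% of all measured genes were. The list median was 0.04, with EPS medians of 0.13 at 0 min and 0.27 at 5 h. Among 15 measured MAP kinase phosphatases and Sprouty genes 9 were above 0, 2 were 1.5-fold downward (4.01% of all were) and the median was 0.13. Single members differed. Nr4a2 had the larger EPS difference at 0 min, 2.01 against 0.95 at 5 h, but the probes differed in size, with a late-minus-early difference of -1.07 for the brightest and -0.65 for the other. Nr4a3 was well above background with EPS at 0 min alone, at least 2.02-fold over its control there. Id3, an inhibitor of helix-loop-helix factors, was at 2.21 and 3.02 at 0 min and at 1.06 and 0.84 at 5 h. The phosphatase Dusp2 differed by 1.48 at 0 min and 0.53 at 5 h. By contrast Dusp5 and Spry4, feedback inhibitors of the ERK pathway, had larger EPS differences at 5 h (1.16 and 0.93) than at 0 min (0.63 and 0.36), although both probes were dim and both late-minus-early differences were near 0 after another background correction. The 12 Kruppel-like factors, also rapid regulators in many cells, had none at 1.5-fold in either direction.

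The start regions of these genes were read from RefSeq on build GRCm38.p6, and the windows shown are the ones that held a cyclic AMP response element, TGACGTCA, in the 250 bases before the start. It was searched on both strands, and capitals mark it. Of 31 genes of the AP-1, Egr and NR4A lists with a window, 2 held the element (6.45%), against 1.77% of 27025 genes with a window. Dusp1, from another list, was picked for its place in the early class and is not among the 2 counted. The 2 holders in the lists had a median late-minus-early difference of -0.76. The 24 measured genes of the lists without the element had -0.44, and the 313 measured holders outside the lists -0.02. A link between the element and the early class was not tested.
Dusp1, chr17:26508583-26508640, minus strand: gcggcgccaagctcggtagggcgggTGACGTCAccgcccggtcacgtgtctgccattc
Btg2, chr1:134079289-134079346, minus strand: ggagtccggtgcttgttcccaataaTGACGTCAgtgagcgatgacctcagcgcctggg
Maff, chr15:79347466-79347519, plus strand: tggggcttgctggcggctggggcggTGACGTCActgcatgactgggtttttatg
The shorter core TGACG, which the full element contains, was in 20 of the 31 genes (64.5%) and in 19.8% of all genes. Those 20 include Fos, Fosb, Junb, Nr4a1 and Nr4a2, and 16 of them were measured, with a median late-minus-early difference of -0.50. The 10 measured genes of the lists without the core had a median of -0.60, so within the lists the values did not follow the core. The 3132 other measured genes with the core had a median of -0.03, near the median of -0.04 for all 10868 measured genes with a window.

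The serum response factor box, known as the CArG box, was found in 3 of the 31 genes (9.68%) and in 1.62% of all genes, again searched on both strands. Srf, which codes for the factor that binds the box and itself is an early gene, and Zfp36 are shown with a box in capitals. The Srf stretch holds a further box to the right, left in lower case.
Srf, chr17:46556210-46556269, minus strand: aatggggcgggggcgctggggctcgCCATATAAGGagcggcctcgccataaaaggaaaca
Zfp36, chr7:28379252-28379311, minus strand: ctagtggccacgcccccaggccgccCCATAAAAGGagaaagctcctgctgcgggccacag
The third holder was Egr2. All 3 were higher with EPS at 0 min, Srf by 0.71, Zfp36 by 1.08 and Egr2 by 1.01. Their late-minus-early differences were below 0, with a median of -0.57. The 23 measured genes of the lists without the box had a median EPS difference of 0.55 at 0 min. Their median late-minus-early difference was -0.44. Over the 165 other measured genes with the box that median was -0.04. Dusp5, from another list, also held the box and had a late-minus-early difference of 0.53.

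**Figure D2:**
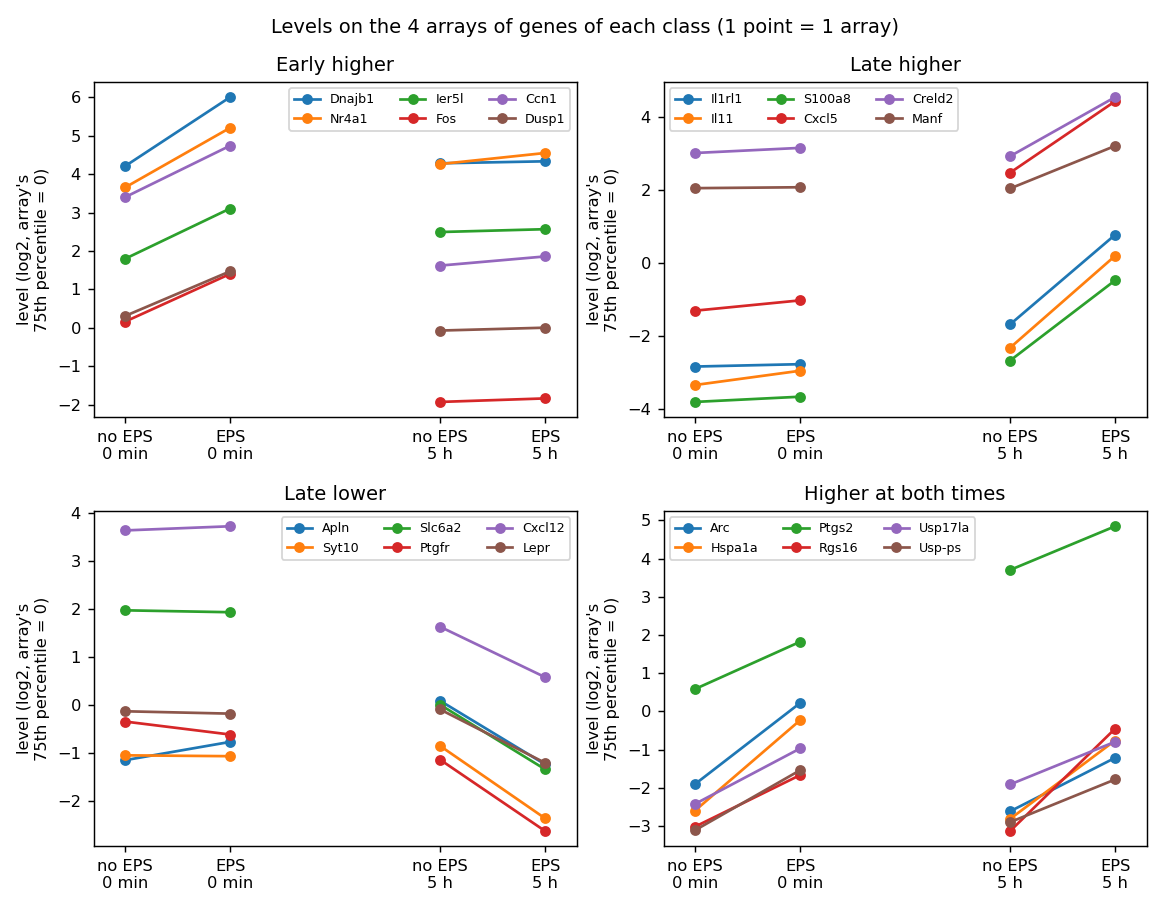
Levels (log2, vertical axis) on the 4 arrays of 6 genes of each of the early higher, late higher and late lower classes and of 6 genes higher at both times; 1 point is 1 array and lines join no EPS to EPS within a time. Dnajb1 goes from 4.21 to 6.01 at 0 min and from 4.28 to 4.33 at 5 h, Il1rl1 from -2.84 to -2.78 and then from -1.68 to 0.78, and Apln from 0.08 to -1.24 at 5 h.

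Several members of the early class owed their place to the control array at 0 min rather than to the EPS array. Ppp5c, a protein phosphatase, stood at -2.93 in the 0 min control, and the other 3 arrays lay from -0.28 to -0.22. Nelfe, a subunit of the complex that pauses RNA polymerase, was at -0.98 on that array and between 1.195 and 1.287 elsewhere. Ggcx, a vitamin K-dependent carboxylase, was at -4.22 there and between -1.88 and -1.56 elsewhere. In each case the control at 0 min was alone low, and both EPS arrays lay near the control at 5 h. Across the 48 early higher genes, 20 had the EPS array at 0 min standing apart from the other 3 by more than 2 times their range and 9 had the control array at 0 min standing apart. The early lower class leaned further to the control, with 21 of 49 standing apart on the control array at 0 min and 10 on the EPS array.

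Early lower genes that met the terms for naming were 3. Malat1, an abundant nuclear noncoding RNA, was at 1.69 and 0.03 without and with EPS at 0 min and at 1.07 and 1.16 at 5 h, so the EPS array at 0 min was low. Eid3 was at -1.56 and -3.004 at 0 min and at -1.68 and -2.09 at 5 h. Mki67, a protein of dividing cells, was at -0.58 in the 0 min control, and the rest lay from -1.88 to -1.71; its other probe gave 1.27 against 1.23. For Mki67 the single high array was the control at 0 min.

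Mki67 belonged to a list whose members mostly shared a direction. Of 25 measured cell cycle and mitosis genes of 30, 24 had a late-minus-early difference above 0 (41.9% of all measured genes did). At 1.5-fold 13 were upward (3.37% of all) and at 2-fold 4 were (0.999% of all). These 4 were Mki67, Tk1 (thymidine kinase), Top2a (a topoisomerase) and Bub1b (a spindle checkpoint kinase). Top2a and Bub1b were dim, and after normexp only Mki67 of the 4 stayed at 2-fold (1.10), with Tk1 at 0.83, Top2a at 0.34 and Bub1b at 0.09. The list median of the EPS difference was -0.55 at 0 min and 0.10 at 5 h, so the difference came from 0 min. Of the 25, 21 were highest on the control array at 0 min and none on the EPS array at 0 min. Relative to each gene's mean over the 4 arrays, the list median was 0.51 on that control array, -0.31 on the 5 h control, -0.06 on the 0 min EPS array and -0.14 on the 5 h EPS array. Ccna2, a cyclin of S phase and mitosis, shows the order, at -1.46 and -2.20 without and with EPS at 0 min and at -2.99 and -2.97 at 5 h. Some genes of DNA replication differed little, as Mcm2 (0.05), Rrm2 (0.00) and Pcna (-0.11) show. In tissue RNA, fewer cells of a type and less RNA per cell cannot be told apart.

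**Figure D3:**
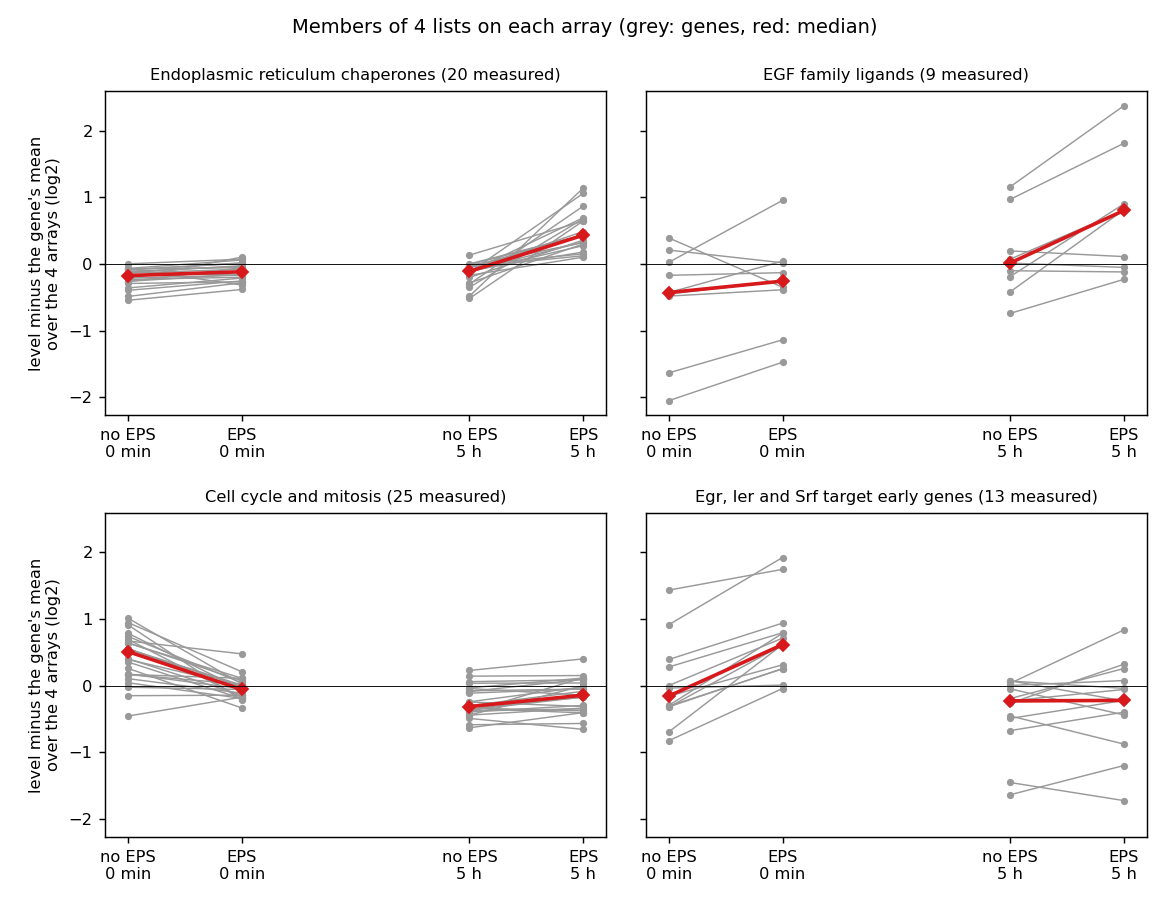
Measured members of 4 gene lists on the 4 arrays, each as its level minus the gene's own mean over the arrays (vertical axis, log2); grey points and lines are genes, red diamonds the list median. The 20 chaperones are highest with EPS at 5 h, the cell cycle genes are mostly highest on the control at 0 min, the 13 Egr, Ier and Srf target genes are higher with EPS at 0 min, and the EGF family ligands are mostly higher on both 5 h arrays and highest with EPS.

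Among the late lists only 1 was measured in full, and every member of it had the same direction. All 20 endoplasmic reticulum chaperones and quality control genes were measured. All 20 had a late-minus-early difference above 0, as did 41.9% of all measured genes, and their highest level on the EPS array at 5 h. Creld2 and Manf, small secreted proteins that are released under endoplasmic reticulum stress, led the list. Creld2 was at 3.02 and 2.93 in the 0 min and 5 h controls, at 3.16 in the 0 min EPS array and at 4.55 with EPS at 5 h. Manf was at 2.06, 2.05 and 2.08 on those arrays and at 3.22 with EPS at 5 h. The first 3 arrays hardly differed and the EPS array at 5 h stood apart, a 3.08-fold EPS difference for Creld2 and a 2.25-fold one for Manf.

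Hspa5, the main Hsp70 of the compartment, known as BiP, was at 5.28, 5.53, 5.43 and 6.33 in the same order, and Dnajc3, its co-chaperone, at -0.44, -0.46, -0.68 and 0.12. Sdf2l1 (0.84), Pdia4 (0.82), Hsp90b1 (0.48), Pdia6 (0.46) and Calr (0.44), which serve in folding or quality control, had late-minus-early differences below those of Creld2 and Manf. Herpud1, Xbp1, Canx and Sec61b had the smallest, between 0.06 and 0.20. In all, 7 of the 20 were 1.5-fold upward (3.37% of all measured genes were) and 3 were 2-fold (0.999% of all). The third of these 3 was Hyou1, at 1.02 on a dim probe. The list median of the EPS difference was 0.10 at 0 min and 0.50 at 5 h. For 12 of the 20 the EPS array at 5 h stood apart, as it did for 5.22% of all measured genes. The brightest 10% of all genes, in which 8 of the 20 lie, had a median late-minus-early difference of -0.20, opposite in sign.

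Promoters of this list often held 1 sequence element. The endoplasmic reticulum stress element, CCAAT and CCACG with any 9 bases between them, searched on both strands in the 250 bases before the start, was in 8 of the 18 listed genes that had a RefSeq window (44.4%) and in 35 of all 27025 genes (0.130%). The windows of 6 of the 8 and of Ero1b, an oxidase of the same compartment that was not listed, are shown because the letters recur among these late genes. Capitals mark the element, which reads CGTGG to ATTGG where it lies on the opposite strand.
Creld2, chr15:88819495-88819563, plus strand: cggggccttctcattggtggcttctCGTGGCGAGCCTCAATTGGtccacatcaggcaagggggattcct
Hspa5, chr2:34772000-34772068, plus strand: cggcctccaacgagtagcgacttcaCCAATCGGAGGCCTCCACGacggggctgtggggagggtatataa
Dnajc3, chr14:118937802-118937870, plus strand: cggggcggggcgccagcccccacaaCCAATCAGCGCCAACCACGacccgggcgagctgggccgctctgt
Hsp90b1, chr10:86705508-86705576, minus strand: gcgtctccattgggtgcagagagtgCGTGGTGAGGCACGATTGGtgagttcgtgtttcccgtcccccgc
Pdia6, chr12:17266466-17266534, plus strand: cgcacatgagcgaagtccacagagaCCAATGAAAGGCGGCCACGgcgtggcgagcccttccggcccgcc
Syvn1, chr19:6046507-6046575, plus strand: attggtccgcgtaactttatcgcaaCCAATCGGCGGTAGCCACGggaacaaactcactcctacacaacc
Ero1b, chr13:12565657-12565725, plus strand: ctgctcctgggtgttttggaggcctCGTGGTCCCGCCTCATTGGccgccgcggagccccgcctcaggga
The other 2 listed holders were Calr and Canx. The 8 listed holders had a median late-minus-early difference of 0.47 and the 10 listed genes without the element 0.32. Among 9 measured holders outside the list 8 were above 0, as were 4662 of all 10868 measured genes with a window. The 9 had a median of 0.29, and Ero1b was the highest of these, at -1.93, -1.06, -1.87 and -0.30 in the order used for Creld2. Alg12 shares its start region with Creld2 on the opposite strand, and its late-minus-early difference was 0.29. A match is a description of the letters and no measure of binding.

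Target genes of ATF4, a factor of a related stress response, did not follow the chaperones as a list. Of 19 measured, 8 were above 0, close to the 41.9% of all measured genes, and the median was -0.08. Chac1 (0.72) and Ddit3 (0.59), the gene for CHOP, were 1.5-fold upward and higher with EPS at 5 h by 0.63 and 0.56. Atf5 was 1.5-fold downward at -0.67. Atf4 itself was at 7.06, 6.95, 7.19 and 7.005, nearly level.

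Cytokine and cytokine receptor genes were among those with large late differences. Il1rl1, the receptor for interleukin-33, was at -2.84 and -2.78 without and with EPS at 0 min and at -1.68 and 0.78 at 5 h. Il11, a cytokine of the interleukin-6 family, was at -3.35 and -2.96 at 0 min and at -2.32 and 0.20 at 5 h. Lif, of the same family, was at -4.32 and -4.20 at 0 min and at -3.26 and -0.79 at 5 h. All 3 stood apart on the EPS array at 5 h, with 5.50-fold, 5.74-fold and 5.52-fold EPS differences there, and the controls at 5 h were also above those at 0 min. Of the 3, Lif was on a dim probe, with a late-minus-early difference of 2.35 that was 1.71 after normexp. A weaker probe of Il1rl1 gave a late-minus-early difference of 1.66 against 2.39, and Il33, the ligand, had one of 0.79.

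Other genes linked to interleukin-6 and acute phase signalling had the opposite sign. Cebpd, a transcription factor of the acute phase response, was at 2.11 and 2.89 without and with EPS at 0 min and at 4.93 and 3.92 at 5 h. Socs3, the feedback inhibitor of the receptor subunit gp130, was at 2.42 and 2.91 at 0 min and at 3.77 and 3.00 at 5 h. Bcl3, an IkB family protein, was at 0.08 and 0.43, then at 2.47 and 1.59. For all 3 the control was much higher at 5 h than at 0 min, and the EPS array exceeded its control at 0 min and lay below it at 5 h. Stat3 (-0.70) and Osmr (-0.71) had the same signs at smaller size. Il6 itself was higher with EPS by 1.25 at 0 min and 0.98 at 5 h, and the control went from -1.13 to 4.82 between the times. Of 18 measured genes of this list, 3 were 2-fold upward (0.999% of all measured genes were). Another 2 were 2-fold downward (0.994% of all), Socs3 and Cish.

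Chemokine and alarm genes had no shared order, with list medians of 0.20 and 0.07. At 1.5-fold, of 15 measured chemokines 2 were late higher, 1 late lower and 3 higher at both times. Of 14 measured alarm genes 2 were late higher and 2 higher at both times. Over all measured genes 0.911% were late higher, 1.23% late lower and 0.282% higher at both times. Cxcl5, a neutrophil attractant, was at -1.31 and -1.02 at 0 min and at 2.48 and 4.44 at 5 h. Cxcl1 and Ccl2 were higher with EPS at both times but more so at 5 h, by 0.95 and then 1.81 for Cxcl1 and by 0.79 and then 1.64 for Ccl2. Cxcl12, which holds progenitor cells in place, went the opposite way, at 3.63 and 3.72 at 0 min and at 1.62 and 0.57 at 5 h, and its other probe gave -1.05 against -1.14. S100a8, a subunit of calprotectin, was at -3.81 and -3.67 at 0 min and at -2.68 and -0.47 at 5 h, whereas its partner S100a9 had EPS differences of 0.04 and 0.49 on a dim probe. Saa3 was at -2.83 and -2.75, then at -2.33 and -0.83. Saa1, Saa2, Hp and Lcn2, other acute phase genes, stayed between -0.22 and 0.12. NF-kB subunits and inhibitors did not follow as a list, with a median of -0.03.

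Growth factor genes of the EGF family were a second late list. Of 9 measured ligands, receptors and regulators of 11, 7 were above 0 and 5 were 1.5-fold upward, against 41.9% and 3.37% of all measured genes. By class at 1.5-fold, 3 of the 9 were late higher (0.911% of all) and 1 was early lower (1.19%). Among the 5 was Erbb3 on a dim probe, at 0.67 and at -0.14 after normexp. The list medians were 0.19 at 0 min and 0.73 at 5 h. Nrg1, neuregulin, was at 0.01 and 0.20 at 0 min and at 0.27 and 1.36 at 5 h. Hbegf was at 1.22 and 1.69, then at 1.23 and 2.46, higher with EPS at both times. Ereg was at -0.27 and 0.30, then at 2.93 and 4.15, with the larger part of its range between the controls. Egfr, the receptor, had a late-minus-early difference of 0.64, while Errfi1, which inhibits it, had EPS differences of 0.93 at 0 min and 0.51 at 5 h. Taking the mean of a gene's probes lowered the list median from 0.64 to 0.35.

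Other secreted and matrix genes of the late kind came one by one. Inhba, the activin A subunit, was at 1.86 and 2.53 at 0 min and at 3.80 and 5.56 at 5 h. Tnc, the matrix protein tenascin-C, was at -2.77 and -2.89, then at -2.95 and -1.94, and its other probe gave 1.55 against 1.13. Mmp13, a collagenase, had EPS differences of 0.25 and 1.71 on a dim probe, and Spp1, osteopontin, of -0.11 and 0.70. Serpinb2, an inhibitor of plasminogen activators that was singled out after its values were seen, was well above background on the 5 h arrays alone, at -4.75 without and -0.36 with EPS, a difference of 4.39. Its late-minus-early difference could not be measured. None of the 14 measured collagen chains on the list was at 1.5-fold in either direction, while Col27a1, a collagen chain outside it that was singled out after its values were seen, was late higher on a dim probe, with EPS differences of 0.31 and 1.57.

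Among neuropeptide genes Penk, which encodes the enkephalins, was at -4.11, -4.07 and -4.03 on the first 3 arrays in the order used for Creld2 and at -2.39 with EPS at 5 h. The Penk probe was dim, and its late-minus-early difference of 1.59 was 0.96 after normexp. Cck, the cholecystokinin gene named in the series title, was at 3.37 and 3.04 without and with EPS at 0 min and at 3.12 and 3.96 at 5 h. The EPS array was thus the lower of the pair at 0 min and the higher at 5 h, and the late-minus-early difference was 1.17. Bdnf had EPS differences of 0.21 and 0.83. Only 9 of 21 listed genes were measured, and the list median of 0.31 was -0.01 after another background correction.

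Further late higher genes that met the terms for naming covered no single function. Map2k6, a kinase that activates p38, was at -2.47 and -2.83 without and with EPS at 0 min and at -3.48 and -2.28 at 5 h. Plek, pleckstrin, was at -0.96 and -0.50, then at 1.47 and 3.01, and Upp1, uridine phosphorylase, at -1.88 and -1.82, then at -0.14 and 0.95. Slco4a1, an organic anion transporter, and Itgb3, an integrin subunit, were 2-fold upward without entering a class, because both were lower with EPS at 0 min (-0.59 and -0.50) and higher at 5 h (1.12 and 0.97).

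Late lower genes were led by Apln, which codes for the peptide apelin, at -1.15 and -0.77 without and with EPS at 0 min and at 0.08 and -1.24 at 5 h. The control at 5 h was the highest of the 4 arrays and the EPS array at 5 h the lowest. Adm, adrenomedullin, was at 0.42 and 0.09, then at 0.72 and -0.38, lower with EPS at both times. Syt10, a synaptotagmin, was at -1.05 and -1.07 at 0 min and at -0.86 and -2.36 at 5 h, where the EPS array stood apart. Lepr, the leptin receptor, was between -0.18 and -0.10 on 3 arrays and at -1.21 with EPS at 5 h, and Gbp6, a guanylate-binding protein, between -1.89 and -1.82 and at -3.05.

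Other late lower genes were lower at 5 h in the control as well. Slc6a2, the noradrenaline transporter, was at 1.97 and 1.93 at 0 min and at 0.00 and -1.34 at 5 h. Slc1a3, a glutamate transporter, was at -0.36 and -0.33, then at -1.33 and -2.41. Ptgfr, the receptor for prostaglandin F2 alpha, was at -0.35 and -0.62, then at -1.14 and -2.63. All 3 were lower in the 5 h control than in the 0 min control, and the EPS array at 5 h lay lower still. Of the 42 late lower genes, 11 stood apart on the EPS array at 5 h and 13 on the control array at 5 h, while of the 46 late higher genes 25 stood apart on the EPS array and 1 on the control.

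Higher at both times were 9 genes, of which 6 met the terms for naming. Hspa1a, the stress-inducible cytosolic Hsp70, was at -2.59 and -0.23 without and with EPS at 0 min and at -2.81 and -0.76 at 5 h. Arc, a synaptic and capsid-forming protein of the immediate early kind, was at -1.90 and 0.22, then at -2.61 and -1.21. Ptgs2, cyclooxygenase 2, was at 0.59 and 1.82, then at 3.70 and 4.85. Both controls lay below both EPS arrays for Hspa1a and Arc, whereas Ptgs2 was higher at 5 h with and without EPS. Rgs16, a regulator of G protein signalling, was at -3.01 and -1.66, then at -3.13 and -0.45, and alone of the 9 was 2-fold upward (2.51-fold) in the late-minus-early difference.

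The remaining named genes were the related Usp17la, a deubiquitinating enzyme (EPS differences of 1.45 and 1.12), and the pseudogene Usp-ps (1.57 and 1.12), whose sequences are similar enough that their probes may share signal. The 12 genes lower at both times were dim, with none meeting the terms for naming and 10 below the lower quartile of level. At 1.5-fold, 51 genes were higher at both times (0.282%) and 126 lower (0.696%), and the former included Il6, Ier3, Fosb and Atf3.

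Heat shock genes divided between the classes by member. Dnajb1 was early and Hspa1a was high at both times, while the design has no probe named Hspa1b. Of 21 measured genes, 19 were higher with EPS at 0 min (55.0% of all genes were) and 12 at 5 h (43.3%), but beyond those 2 genes the EPS differences at 0 min stayed at or under 0.50. Hsp90aa1 (0.50 and 0.12), Bag3 (0.47 and 0.05) and Hsph1 (0.46 and 0.38) were the next. The list median of the late-minus-early difference was -0.23, and 12 of the 21 lie among the brightest 10% of genes, whose median was -0.20. The heat shock element was in 2 of 16 listed genes with a window (12.5%) and in 0.514% of 27025 genes, and the 2 were Hspd1 and Hspe1, which share 1 start region and had late-minus-early differences of -0.01 and -0.23.

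**Figure D4:**
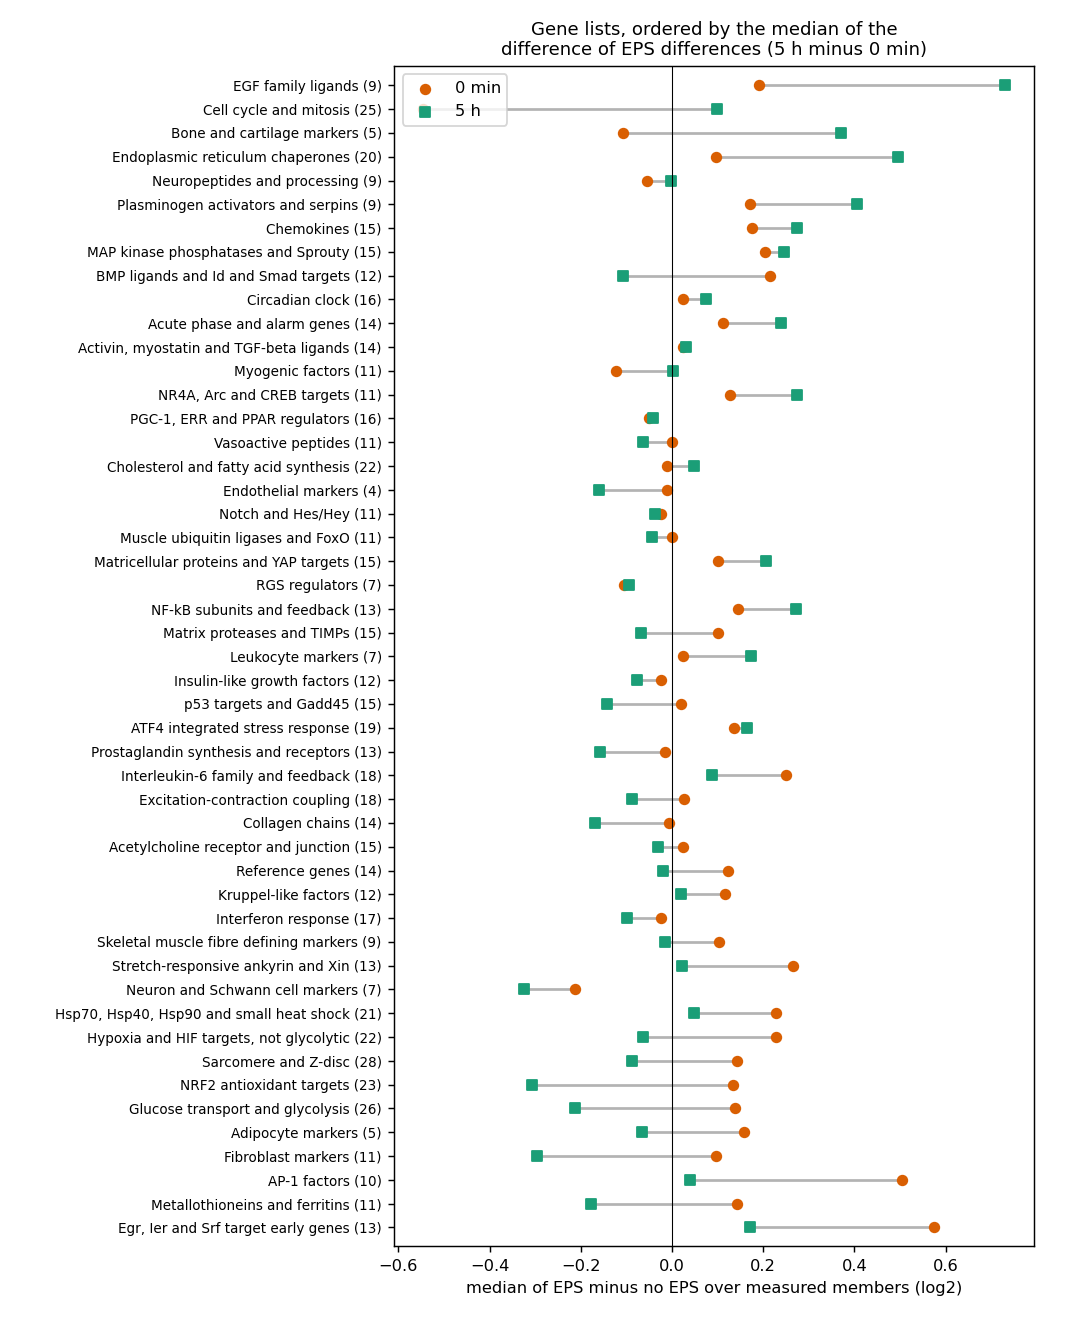
Median of EPS minus no EPS over the measured members of each list (horizontal axis, log2) at 0 min (orange circles) and 5 h (green squares), with the number of measured members in brackets, ordered by the median late-minus-early difference. At the top the green square lies to the right, as for EGF family ligands (0.19 and 0.73) and endoplasmic reticulum chaperones (0.10 and 0.50), and at the bottom it lies to the left, as for AP-1 factors (0.50 and 0.04).

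Metabolic and antioxidant lists had small differences in many members. Of 26 glucose transport and glycolysis genes, all measured, 25 had a late-minus-early difference below 0 and 1 above, where 41.9% of all measured genes were above 0. The list median was -0.32, with median EPS differences of 0.14 at 0 min and -0.21 at 5 h. Ldha, lactate dehydrogenase A, was at 7.10 and 7.22 at 0 min and at 7.06 and 6.76 at 5 h, and Slc2a4, the insulin-regulated glucose transporter, at -0.64 and -0.19, then at -0.99 and -1.27. Pfkl and Slc2a4, both -0.73, were the 2 that reached 1.5-fold. Of 23 NRF2 target genes, 20 were lower with EPS at 5 h, as were 56.7% of all genes, and the median late-minus-early difference was -0.30. Hmox1, heme oxygenase, was at 3.096 and 3.38 at 0 min and at 6.40 and 6.02 at 5 h, so the difference between the controls was far larger than either EPS difference. Of 11 metallothionein, ferritin and metal transport genes, 9 were below 0 and 2 above (41.9% of all genes were above), with a list median of -0.53. Among the 9 were Ftl1 (-0.79), Fth1 (-0.58) and Mt1 (-0.56), and the zinc exporter Slc30a1 was higher with EPS at 0 min by 1.16.

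These lists hold many bright genes, and the late-minus-early difference depended on brightness. Its median was between -0.04 and -0.01 in each of the lowest 7 of 10 equal bins of level, -0.03 in bin 8, -0.07 in bin 9 and -0.20 in bin 10, the brightest. Quantile normalization, which forces the 4 arrays to 1 distribution, moved the medians to -0.18 for glycolysis, -0.21 for NRF2 targets and -0.20 for metallothioneins and ferritins. Sarcomere genes went from -0.24 to 0.02 and reference genes from -0.13 to 0.05 under that setting, so no direction is given for these lists. The chaperone list was 0.53 and the AP-1 list -0.48 under it. Hypoxia targets outside glycolysis had a median of -0.24 and -0.22 under quantile normalization. At 0 min 16 of 22 were higher with EPS (55.0% of all genes were), with a list median of 0.23. Of the 22, 5 lie among the brightest 10% of genes, whose median EPS difference at 0 min was 0.12. At 1.5-fold 3 were downward (4.01% of all), among them Bnip3 (-0.66) and Ndrg1 (-0.64), both HIF targets.

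**Figure D5:**
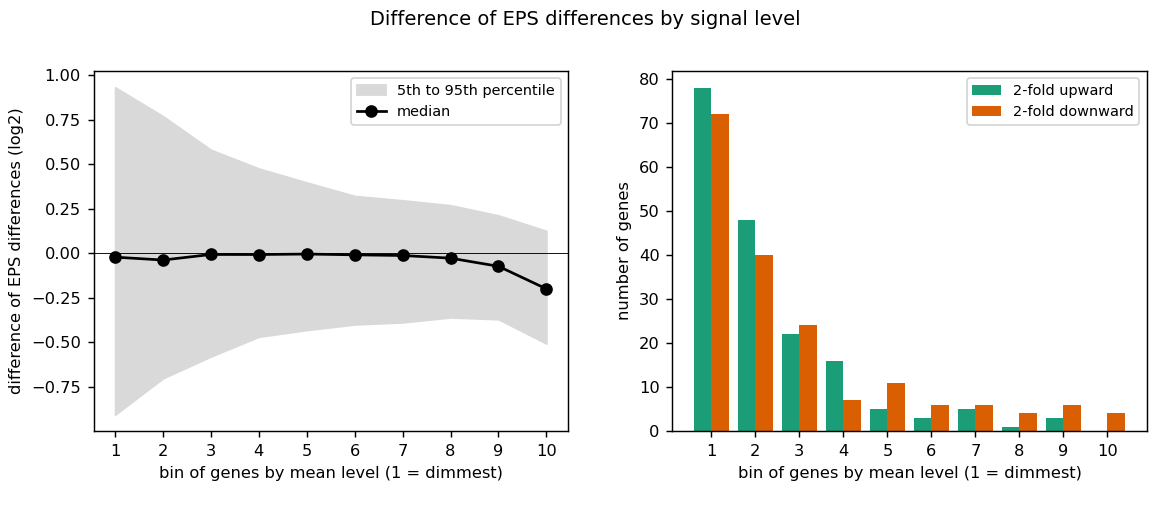
Left, median (points) and 5th to 95th percentile (grey) of the late-minus-early difference (log2) in 10 equal bins of the 18115 genes by mean level, bin 1 being the dimmest; right, number of genes 2-fold upward (green) and downward (orange) in each bin. The grey band is widest and the counts are highest in the dimmest bins, and the median is -0.20 in the brightest bin.

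Muscle function genes and most other lists had late-minus-early differences near that of all genes. Excitation-contraction coupling genes (median -0.11, with Pvalb at -0.87 the largest), acetylcholine receptor and junction genes (-0.12), myogenic factors (0.05), muscle ubiquitin ligases and FoxO genes (0.01) and PGC-1 and PPAR regulators (0.02) had at most 2 members at 1.5-fold in a direction. Abra, an actin-binding activator of SRF signalling in striated muscle, was 2-fold downward, at -1.11 and -0.43 at 0 min and at -1.56 and -2.41 at 5 h. Myf6, a myogenic factor, was at 0.94 and 1.07, then at 0.67 and 0.02. Of 49 lists in all, 5 had a median of at least 0.25, 7 of -0.25 or less and 37 neither. The lists held 774 distinct genes, of which 661 were measured.

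Markers of other cells differed in some lists. Of 11 measured fibroblast markers of 13, 10 were below 0 and 1 above, where 41.9% of all measured genes were above 0. The list median was -0.38 (-0.22 under quantile normalization), and Pdgfrb was at 2.84 and 2.63 at 0 min and at 1.07 and 0.20 at 5 h. Relative to each gene's mean, the list median ran from -0.33 with EPS at 5 h to 0.26 with EPS at 0 min, and Thy1 was not well above background on any array. Of 11 adipocyte markers 5 were measured, with a median of -0.33, and Adipoq was not well above background on any array. Of 11 bone and cartilage markers 5 were measured, all 5 above 0 with a median of 0.49, led by Spp1 and Runx2, while Sp7 was not well above background on any array. The median level of the 5 was -3.56, below the lower quartile of all genes. After normexp their median was 0.26, with Spp1 at 0.91, Runx2 at 0.29 and Dmp1 below 0 (-0.09, from 0.17). Leukocyte markers had a median of -0.04, and 1 of the 7 was 2-fold upward, Cd68, with EPS differences of -1.33 and 0.64 on a dim probe and a late-minus-early difference of 1.97 (0.69 after normexp). Cd14 was higher with EPS at 5 h by 0.91. The part of these markers in the late differences was not tested.

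Most large differences came from dim probes, where the measurement is least precise. Of the 361 genes at 2-fold (1.99% of all), 264 had a mean level below the lower quartile of -2.89, and 97 at or above it. Between spots of the 271 measured probes printed 10 times on each array, the SD of the late-minus-early difference had a median of 0.07 over all levels, 0.23 below the lower quartile of level and 0.05 above the upper. Named genes with such spots had small SDs, 0.05 for Creld2 and 0.06 for Fos. That SD covers spots of 1 labelled sample and says nothing of the spread between tissues. Among the 361 genes 23 had a further measured probe, and 20 of those 25 probes had the same direction and 11 also reached 2-fold. Over all measured genes, 3001 of 4498 further probes had the same direction and 52 of them also reached 2-fold.

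The difference of differences takes in both controls. Of the 361 genes, 124 differed at least 2-fold between the controls at the 2 times, and 141 were under 2-fold at each time alone. The single array that stood apart was the EPS array at 5 h for 51 genes, the control at 0 min for 43, the EPS array at 0 min for 34 and the control at 5 h for 18, and for 215 genes none did. Over all measured genes these shares were 5.22%, 3.45%, 3.45% and 2.02%. Just inside 2-fold lay Lrrk2 at 1.004 and just outside Exo1 at 0.997 upward, and Uvssa at -1.001 inside and Fosl2 at -0.99 outside downward.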

How the data were processed

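Total RNA was labelled with Cy3 and hybridised to 4 single-colour Agilent arrays. Feature Extraction 10.7.3.1 had made the deposited linear intensities, per the file headers, with background subtracted, spatial trends removed and surrogates near background. The deposited value table held the same processed intensities for all 43020 non-control spots. From these, log2 levels relative to the array's 75th percentile were computed with Python 3.11.15. Control and outlier spots (112 to 141 per array) were left out, spots of a probe averaged, and the brightest probe well above background on all 4 arrays taken per gene. Of 39429 probes, 26055 were renamed or matched by accession to RefSeq GRCm38.p6. No test was run with 1 array per group, and a 2-fold size rule was used. Normexp used limma 3.58.1 (offset 50) as one of 9 other settings. The arithmetic was tested on simulated data.

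Named genes are the 15 largest per direction and up to 8 per class at or above the lower quartile of level, with no probe going the other way and a gene symbol, plus up to 4 per list. Further list members are given as examples. The comparison, members and lists, which come from general knowledge, were chosen with earlier results of these data known. With 4 arrays, their number limits the precision. Some items are not reported here.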

Additional observations from a re-analysis of the deposited data

Results flagged for a closer look

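3 genes had EPS differences of at least 2-fold in opposite directions at the 2 times (higher then lower 0.0110%, lower then higher 0.00552% of 18115 genes), and with 1 array per group the difference was not tested. H2bfm, a histone H2B family gene, was higher with EPS at 0 min and lower at 5 h, with a late-minus-early difference of -3.18. The transcript TC1724494, which has no gene symbol in the array files, went the same way at -3.09. Ly6f, a Ly6 family gene, was lower and then higher with EPS, at 3.14. All 3 lie in the dimmest 10% of genes, and their late-minus-early differences were -1.50, -1.60 and 1.25 after normexp background correction.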

How the results depend on the processing

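No paired analysis was possible because each group is 1 array, so a replicate block could not be fitted. Limits: there is no error between tissues, time in culture differs between the controls, dim probes carry most 2-fold calls, and bright genes shift together unless quantile normalization is used. All 60 named genes at 2-fold kept their direction in every setting that measured them, and 42 stayed at 2-fold in each.

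Counts are given as upward, downward; then early higher, early lower, late higher, late lower; both higher, both lower; opposite. Normexp gave 34, 75; 18, 6, 15, 17; 4, 1; and 0. Probes well above background on at least 1 array gave 858, 1001; 248, 224, 253, 276; 76, 162; and 184. Genes at or above the lower quartile gave 41, 56; 17, 9, 16, 17; 2 both lower; and 0. A size rule of 1.5-fold gave 611, 726; 175, 216, 165, 223; 51, 126; and 37. A quiet limit of 0.25 gave 31 early higher, 29 late higher and 26 late lower genes. Quantile normalization and median centring each gave 5 opposite genes.

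Genes with a single array apart numbered, for control 0 min, control 5 h, EPS 0 min and EPS 5 h, 11, 8, 14 and 21 with normexp, 212, 198, 224 and 276 with at least 1 array, and 12, 2, 6 and 22 above the lower quartile. Lists with a median of 0.25 or more went from 5 to 3 above the lower quartile, and lists of -0.25 or less from 7 to 3 with quantile normalization. The neuropeptide list median turned from 0.31 to -0.011 with normexp. The cause of these changes was not tested, beyond the larger or smaller number of genes each filter admits. Median centring moved the median of all genes from -0.05 to 0.00.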
